A study of Mus musculus with 9 samples.

Results

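Chemokines are small secreted proteins that steer the movement of leukocytes, and chemokine receptors are the cell-surface proteins that read them. The set described here is the mouse genes of that family, taken by symbol: every gene whose symbol starts with Ccl, Cxcl, Ccr or Cxcr and a digit, with Cx3cl1, Cx3cr1, Xcl1, Xcr1 and Darc. The rule took no measured value, and it found 60 of the 22609 genes in each deposited count file. These are 24 CC chemokines, 13 CXC chemokines, 2 chemokines of the CX3C and C classes, 11 CC receptors, 6 CXC receptors, 2 receptors of the CX3C and C classes, and 2 atypical receptors, Cxcr7 and Darc. The files use older symbols for both of the last, which are now called Ackr3 and Ackr1.

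The 9 RNA sequencing libraries came from male C57 mice aged 8 to 12 weeks, with 3 from dorsal root ganglia (DRG, levels L3 to L5), 3 from lumbar spinal cord and 3 from a skin punch of the hind paw. All 9 had the same treatment. The chemotherapy drug paclitaxel was given as 2 intraperitoneal injections of 2 mg/kg, and an antagonist of the lymphotoxin beta receptor (LTβR) was given at 15 µg per site into the hind paw and intrathecally. The sample titles place the antagonist at days 1 and 4, and tissue was taken 6 days after the last paclitaxel dose. Animals given control antibody are not analysed here, so no value here is an effect of paclitaxel or of the antagonist, and the only comparisons are between tissues. Nothing in the labels ties the 3 libraries of a tissue to different animals, so p-values measure only the spread between these libraries, which may be technical.

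In this family a ligand's class is set by the spacing of its first cysteines, and most ligands bind more than 1 receptor. The receptors couple to inhibitory G proteins, while atypical receptors bind chemokines without that coupling and remove or present them. In pain research the family is known for signals between sensory neurons, glia and infiltrating leukocytes, with Cx3cl1 acting on microglia through Cx3cr1 and Ccl2 acting through Ccr2. LTβR itself is known in lymphoid organs for driving Ccl19, Ccl21 and Cxcl13, the chemokines that place lymphocytes.

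Each library held between 15537545 and 23229724 reads counted to genes. Levels are given as counts per 1000000 reads (CPM) of library sizes scaled by trimmed mean of M values, and 3 reads correspond to 0.134 to 0.185 CPM. Tissue labels were checked against marker genes. Summed sensory neuron markers were 3307 to 3918 CPM in DRG and at most 23.9 CPM elsewhere, summed spinal neuron markers 651 to 747 CPM in spinal cord and at most 3.28 CPM elsewhere, and summed keratinocyte markers 32905 to 49780 CPM in paw and at most 36.2 CPM elsewhere. The paw punch also held skeletal muscle markers at 13926 to 18362 CPM. Some libraries stood apart from the other 2 of their tissue. Spinal cord 1 held marrow neutrophil markers at 836 CPM against 229 and 271 CPM, and erythroid markers at 124 CPM against 9.38 and 18.1 CPM. DRG 2 held marrow neutrophil markers at 467 CPM against 203 and 172 CPM. Spinal cord 3 held fibroblast markers at 1158 CPM against 485 and 385 CPM, and Schwann cell markers at 8479 CPM against 3078 and 3263 CPM. Skeletal muscle markers summed to 589 CPM in DRG 1 and 897 CPM in DRG 2 against 31.9 CPM in DRG 3. Their part in the results was not tested, and the calls that changed without DRG 1 and DRG 2 together are given beside the member. In that fit the lone DRG library is assumed to vary like those of the other tissues. The fit without spinal cord 1 and spinal cord 3 assumes the same of the lone spinal cord library.

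**Figure D1:**
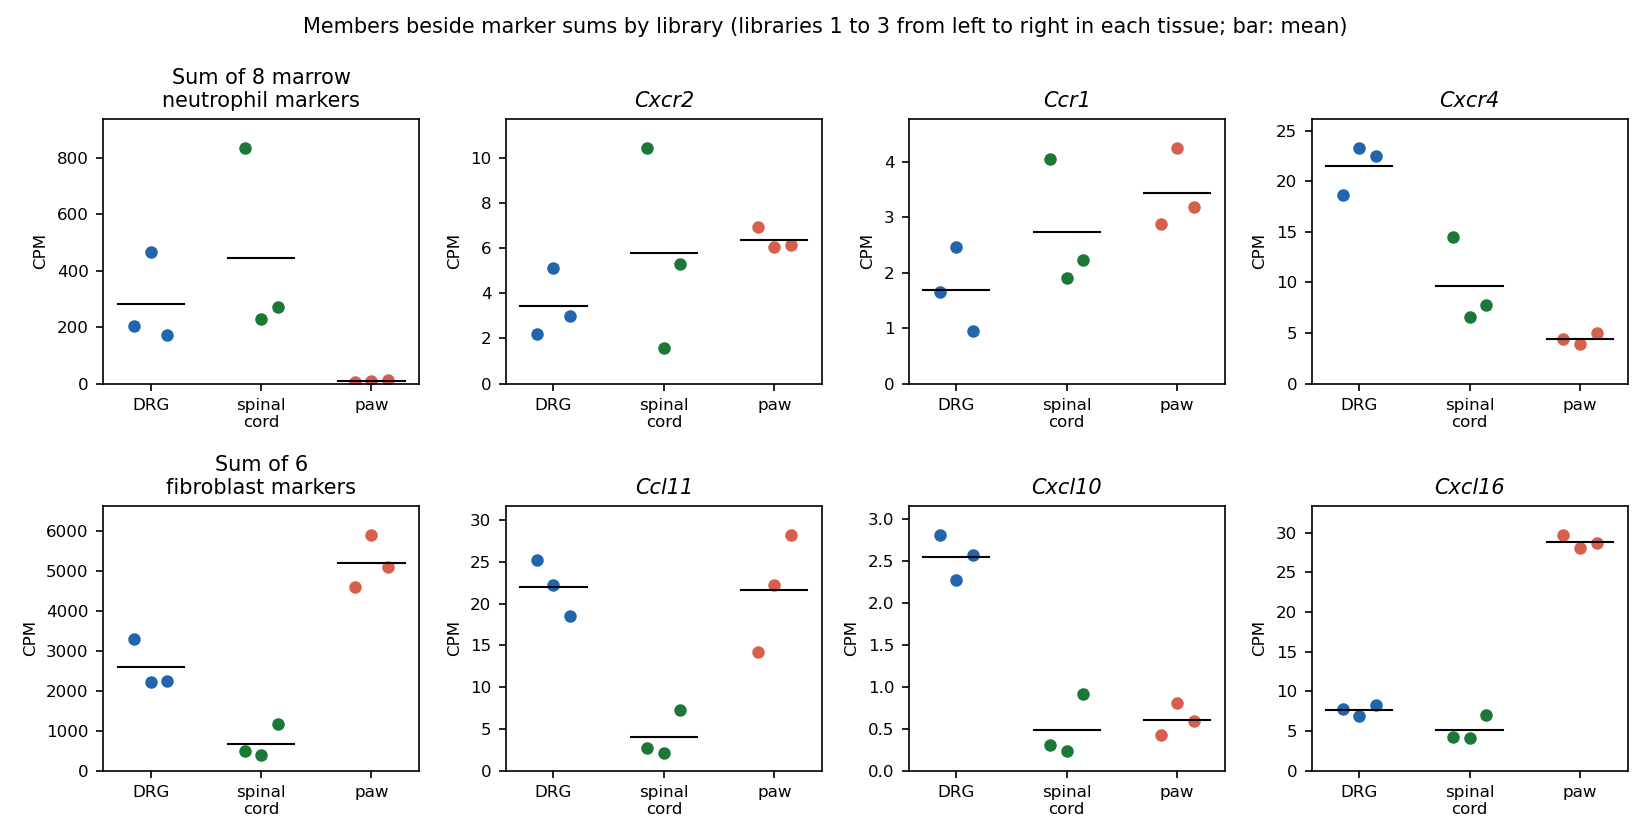
CPM by library of the summed marrow neutrophil markers (top left) and of 3 receptors, and of the summed fibroblast markers (bottom left) and of 3 ligands, with libraries 1 to 3 of each tissue from left to right and the tissue mean as a bar (n = 3). Spinal cord 1 and DRG 2 have the highest marrow neutrophil sums and the highest Cxcr2, Ccr1 and Cxcr4 of their tissues. Spinal cord 3 has the highest fibroblast sum, Ccl11, Cxcl10 and Cxcl16 of the spinal cord. In paw the neutrophil sum and Cxcr4 are highest in paw 3, Cxcr2 in paw 1 and Ccr1 in paw 2. There the fibroblast sum and Cxcl10 are highest in paw 2, Ccl11 in paw 3 and Cxcl16 in paw 1. In DRG the fibroblast sum, Ccl11 and Cxcl10 are highest in DRG 1 and Cxcl16 in DRG 3.

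Promoter sequences are shown for 5 members, because they hold the letters through which inflammatory and interferon signals are classically read in this family, or, for Cx3cl1, because it is the first ligand described. The windows cover 250 bases before to 50 after the annotated start, from RefSeq on GRCm38.p6, and are read along the gene's strand. Capitals mark a match to the kB site of NF-κB proteins (searched as GGGA and TTCC with 2 bases of any kind between them), to the core of the interferon-stimulated response element (TTTC and TTTC with 2 bases of any kind between them) or to a TATA box (TATAAA). Both strands were searched for all 3.
Cxcl1, chr5:90890995-90891294 on the plus strand: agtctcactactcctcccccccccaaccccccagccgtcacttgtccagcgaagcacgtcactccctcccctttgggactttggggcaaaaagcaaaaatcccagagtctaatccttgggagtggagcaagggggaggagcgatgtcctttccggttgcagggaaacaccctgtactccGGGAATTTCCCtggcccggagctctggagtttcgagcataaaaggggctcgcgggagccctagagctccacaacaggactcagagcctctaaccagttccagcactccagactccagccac
Cxcl3, chr5:90785851-90786150 on the plus strand: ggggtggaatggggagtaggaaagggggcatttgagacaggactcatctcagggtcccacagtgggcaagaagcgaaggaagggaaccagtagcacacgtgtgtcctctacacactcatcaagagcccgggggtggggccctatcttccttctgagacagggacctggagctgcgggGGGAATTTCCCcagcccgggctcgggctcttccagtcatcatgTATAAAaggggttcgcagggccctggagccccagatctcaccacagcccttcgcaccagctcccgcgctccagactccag
Cxcl10, chr5:92348840-92349139 on the minus strand: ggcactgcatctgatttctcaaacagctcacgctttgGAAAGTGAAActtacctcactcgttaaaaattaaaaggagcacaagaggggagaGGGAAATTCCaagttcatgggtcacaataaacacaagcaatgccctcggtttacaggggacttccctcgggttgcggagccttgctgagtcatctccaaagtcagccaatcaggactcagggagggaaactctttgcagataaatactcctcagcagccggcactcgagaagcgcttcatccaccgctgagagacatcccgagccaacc
Cxcl14, chr13:56296502-56296801 on the minus strand: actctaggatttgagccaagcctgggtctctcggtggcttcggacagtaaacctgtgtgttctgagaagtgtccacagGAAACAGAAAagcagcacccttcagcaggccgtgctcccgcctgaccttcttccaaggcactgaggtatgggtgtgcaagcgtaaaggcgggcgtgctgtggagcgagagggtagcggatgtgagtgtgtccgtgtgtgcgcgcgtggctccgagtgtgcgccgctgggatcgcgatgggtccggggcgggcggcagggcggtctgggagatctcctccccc
Cx3cl1, chr8:94771930-94772229 on the plus strand: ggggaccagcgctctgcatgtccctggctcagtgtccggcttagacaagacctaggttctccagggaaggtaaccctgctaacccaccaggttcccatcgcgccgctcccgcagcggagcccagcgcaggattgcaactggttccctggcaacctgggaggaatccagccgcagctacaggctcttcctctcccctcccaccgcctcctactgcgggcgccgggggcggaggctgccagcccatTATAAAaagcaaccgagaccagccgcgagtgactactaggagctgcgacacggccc
The kB letters lie 71 bases before the start in Cxcl1, 73 in Cxcl3 and 159 in Cxcl10. In Cxcl1 and Cxcl3 the letters match on both strands, with 2 matches that overlap. The interferon element lies 213 bases before the start in Cxcl10 and 172 in Cxcl14, and the letters TATAAA lie 30 before it in Cxcl3 and 6 before it in Cx3cl1.

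A promoter entry was found for 44 of the 60 members, with 51 windows. The other 16 were not searched, among them Ccl2, Ccl5, Ccl7, Ccl11, Cxcl5 and Cxcl11. A kB match occurred in the windows of 6 members, which are Ccl1, Ccr3, Cxcl1, Cxcl2, Cxcl3 and Cxcl10, and in 1.47% of all 32851 promoter windows. The interferon element occurred in 3 members, Ccl19, Cxcl10 and Cxcl14, and in 3.44% of all windows. TATAAA occurred in 14 members and in 13.6% of all windows. A match is a run of letters and no measurement of binding.

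A total of 33 members had enough reads to be tested and 27 did not. Across the tested members, 20 had their highest mean in paw, 7 in DRG and 6 in spinal cord, where 41.3%, 27.0% and 31.7% of all 16091 tested genes had theirs. All 3 paw libraries lay above the other 6 for 16 members against 33.7% of all genes, all 3 DRG libraries for 5 members against 17.3%, and all 3 spinal cord libraries for 5 members against 21.1%. The low-count filter can keep a gene through the tissue where it is high. Members such as Ccr4, Cxcl17 and Cxcl1 had enough reads only in paw. Their place in these counts, in the calls and in the medians follows in part from the filter. Only tissue levels are known from bulk RNA, so more cells of a type and more RNA per cell cannot be told apart.

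Levels of different genes were compared per kilobase of exon, with lengths from GENCODE M21 on GRCm38. Among ligands in DRG, Ccl11 stood first at 20.3 ± 3.10 CPM per kb, followed by Cxcl12 at 11.0 ± 1.71 and Ccl6 at 4.50 ± 0.350. In spinal cord, Cx3cl1 stood first at 110.2 ± 8.55 CPM per kb, followed by Cxcl14 at 39.8 ± 6.49 and Cxcl12 at 15.6 ± 2.24. In paw, Ccl6 at 40.0 ± 1.39, Cxcl14 at 39.4 ± 3.47 and Cxcl12 at 33.6 ± 3.98 CPM per kb were followed by Ccl11 at 20.0 ± 6.50 (all SD, n = 3). The first 2 of these paw ligands lay within their spread of each other, and the SD ranges of Cxcl14 and Cxcl12 in paw overlapped too. The leading ligands of DRG and of spinal cord lay apart from the next. Among receptors, Darc stood first in DRG at 125 ± 18.5 and in spinal cord at 53.5 ± 8.47 CPM per kb, though its exons overlap those of another gene, as described with it. Cxcr4 followed in DRG at 11.9 ± 1.40, Cx3cr1 in spinal cord at 9.14 ± 0.692, and Cxcr7 stood first in paw at 25.3 ± 1.43 CPM per kb.

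**Figure D2:**
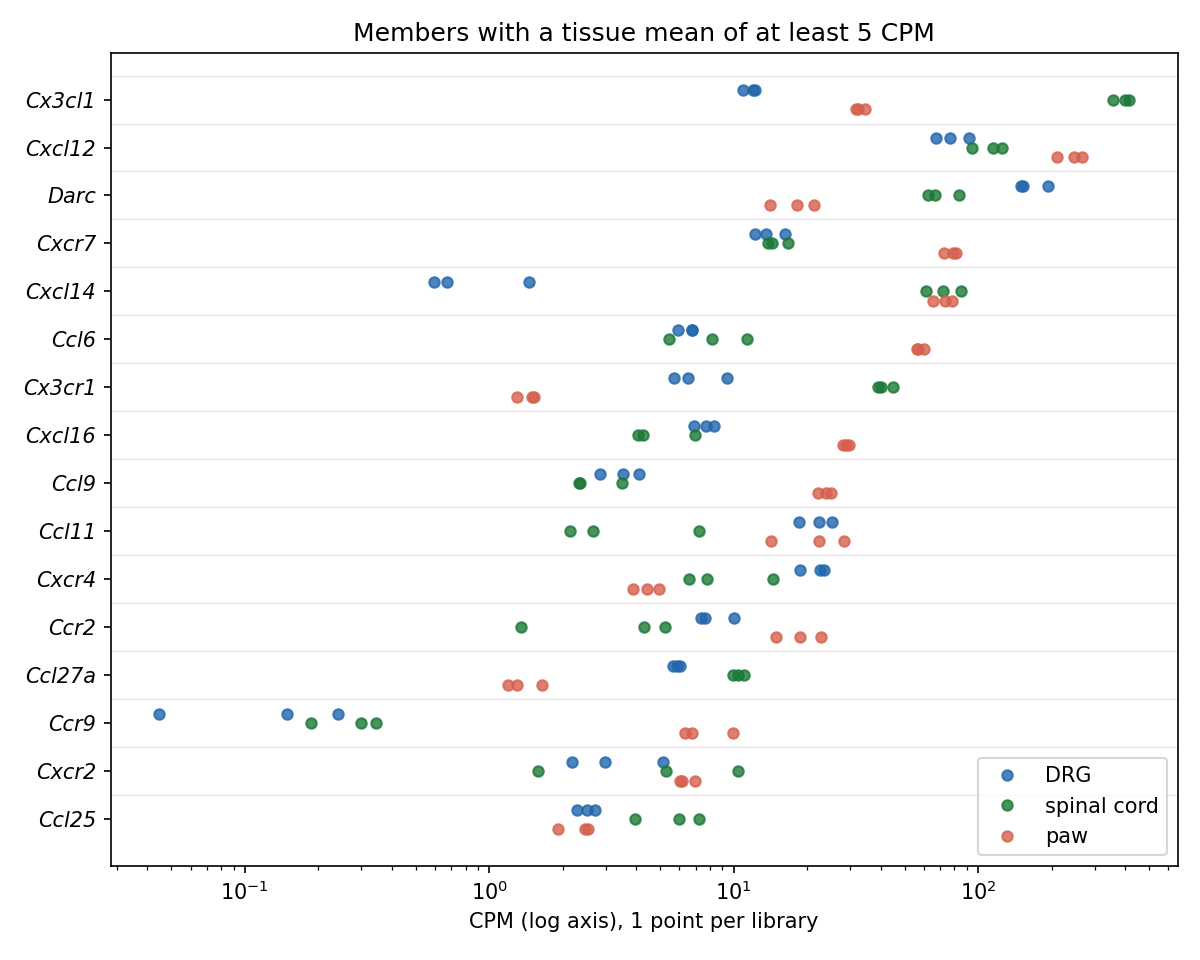
CPM on a log axis, 1 point per library and 1 colour per tissue, for the 16 members with a mean of at least 5 CPM in some tissue. Cx3cl1 is high in the 3 spinal cord libraries, and Cxcl14 is low in the 3 DRG libraries.

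Cx3cl1, or fractalkine, is a membrane-anchored ligand that neurons are known to make, and Cx3cr1 is its receptor on microglia and other mononuclear phagocytes. Cx3cl1 was measured at 414, 398 and 356 CPM in spinal cord, 34.6, 32.4 and 31.6 in paw and 12.0, 12.3 and 10.9 in DRG. The 3 tissues did not overlap, and spinal cord stood far above the others. Its log2 fold change in DRG against spinal cord was -5.05 ± 0.11 (SE; edgeR's quasi-likelihood test, adjusted p = 1.18e-10), and in paw against DRG it was 1.49 ± 0.10 (adjusted p = 4.35e-08). Cx3cr1 was measured at 40.0, 38.8 and 44.7 CPM in spinal cord, 9.38, 5.70 and 6.49 in DRG and 1.50, 1.30 and 1.53 in paw. Ligand and receptor were both highest in spinal cord, but their order in the other two tissues differed, with the ligand higher in paw and the receptor higher in DRG. The receptor's log2 fold change was -2.51 ± 0.17 in DRG against spinal cord (adjusted p = 1.9e-07) and -2.31 ± 0.21 in paw against DRG (adjusted p = 9.61e-07).

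The summed level of microglia markers was highest in spinal cord, like Cx3cr1. It was 260 to 266 CPM in spinal cord, 153 to 171 CPM in DRG and 142 to 160 CPM in paw, and none of the 7 markers was at 0 in a tissue. Against spinal cord, 5 of the 7 were lower in DRG (Gpr34, P2ry12, Sall1, Siglech and Tmem119) and 1, Olfml3, was higher. Of all tested genes, 30.6% were lower there and 29.0% higher. In paw against DRG, 3 of the 7 (Gpr34, Sall1 and Tmem119) were higher, and 2, P2ry12 included, were lower. The shares of all tested genes were 39.7% higher and 40.8% lower. The part of cell composition in the level of Cx3cr1 was not tested.

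Cxcl12 is a ligand made by stromal cells, endothelium and neurons, Cxcr4 is its signalling receptor, and Cxcr7 is the atypical receptor that takes it up. Cxcl12 was measured at 209, 247 and 265 CPM in paw, 115, 94.0 and 125 in spinal cord and 91.6, 67.3 and 76.7 in DRG. The tissues did not overlap. Paw exceeded DRG by a log2 fold change of 1.62 ± 0.14 (adjusted p = 7.69e-07), and DRG against spinal cord gave the smaller value of -0.50 ± 0.14 (adjusted p = 0.00973), which no longer passed when spinal cord 1 and spinal cord 3 were left out (-0.24, adjusted p = 0.343). Cxcr7 had the same tissue on top, at 81.2, 79.0 and 72.7 CPM in paw, 16.2, 13.5 and 12.2 in DRG and 14.4, 16.7 and 13.8 in spinal cord. Its DRG and spinal cord values overlapped, and paw exceeded DRG by 2.47 ± 0.12 on the log2 scale (adjusted p = 4.23e-09). Cxcr4 ran the other way, at 18.6, 23.3 and 22.5 CPM in DRG, 14.5, 6.58 and 7.81 in spinal cord and 4.43, 3.89 and 4.95 in paw. All 3 DRG libraries were above all others, and the log2 fold change in paw against DRG was -2.28 ± 0.27 (adjusted p = 1.24e-05). In DRG and paw, Cxcr4 was highest in DRG 2 and paw 3, which also had the highest marrow neutrophil sums there. The part of marrow neutrophil RNA in the level of Cxcr4 was not tested. The highest spinal cord value of Cxcr4 was in spinal cord 1, the library with the most marrow neutrophil RNA. Without it, Cxcr4 in DRG against spinal cord moved from 1.16 ± 0.25 (adjusted p = 0.00218) to 1.59 (adjusted p = 1.81e-05), and in paw against spinal cord from -1.12 ± 0.27 (adjusted p = 0.00276) to -0.68 (adjusted p = 0.00474).

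**Figure D3:**
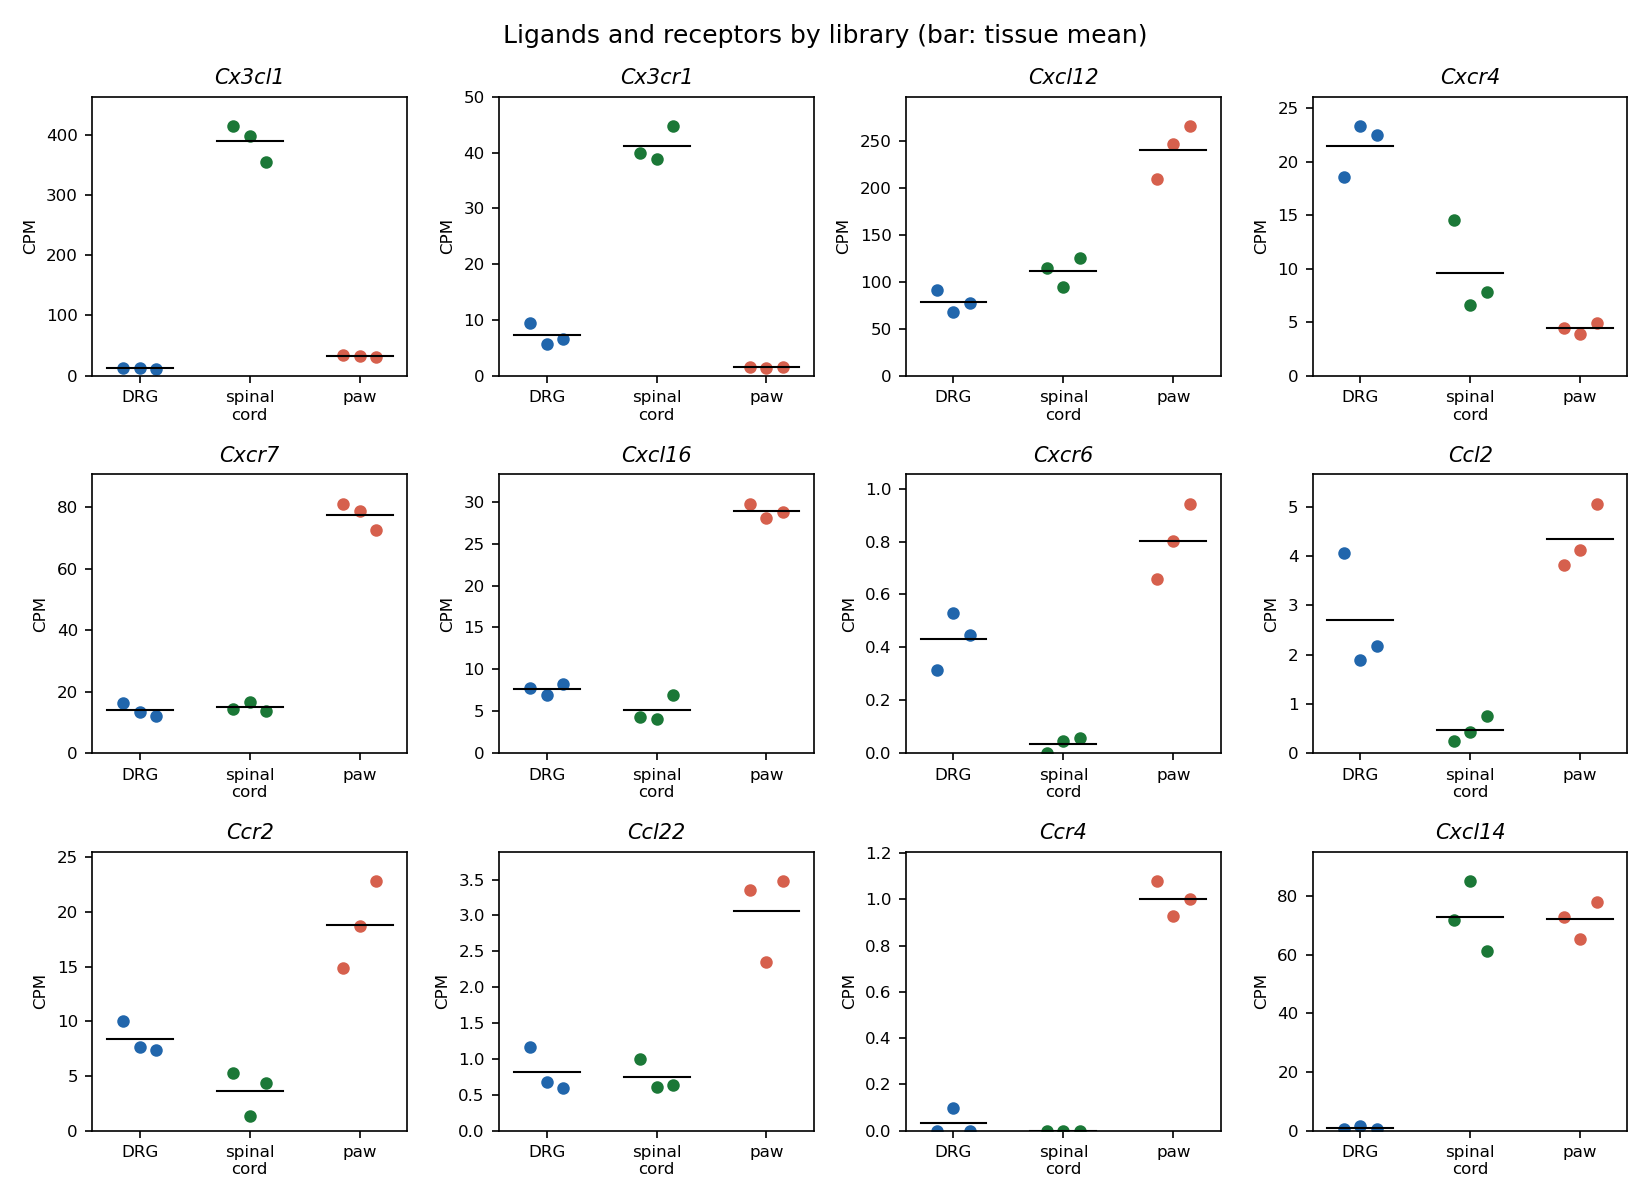
CPM by library on linear axes that start at 0, with 1 panel per gene, 3 points per tissue and the tissue mean as a bar, for ligands and the receptors they are known to bind and for Cxcl14. Cx3cl1 and Cx3cr1 share spinal cord as their highest tissue, while Cxcl12 and Cxcr7 are highest in paw and Cxcr4 is highest in DRG.

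Cxcl14 is a ligand of epithelium, known from skin, whose receptor is not settled. It was measured at 72.0, 85.0 and 61.4 CPM in spinal cord, 73.0, 65.3 and 77.9 in paw and 0.670, 1.45 and 0.594 in DRG. Paw and spinal cord overlapped, and every DRG library was below 2 CPM. The log2 fold change was -6.33 ± 0.25 in DRG against spinal cord (adjusted p = 4.19e-09) and 6.31 ± 0.25 in paw against DRG (adjusted p = 8e-10). Between paw and spinal cord it was -0.02 ± 0.17 (adjusted p = 0.939), and its sign turned in some of the alternative fits. Its promoter, shown above, is 1 of the 3 member promoters with the interferon element.

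Cxcl16 is a membrane-bound ligand of macrophages and dendritic cells, and Cxcr6 is its receptor on T and NKT cells. Cxcl16 was measured at 29.8, 28.1 and 28.7 CPM in paw, 7.73, 6.90 and 8.27 in DRG and 4.25, 4.06 and 6.95 in spinal cord. Paw lay above the rest without overlap, with a log2 fold change of 1.92 ± 0.18 against DRG (adjusted p = 1.08e-06). DRG and spinal cord overlapped slightly, since DRG 2 stood at 6.90 CPM and spinal cord 3 at 6.95 CPM, and their difference of 0.60 ± 0.19 (adjusted p = 0.0174) did not pass without DRG 3 or without either of spinal cord 1 and 2 (0.44 to 0.54, adjusted p = 0.0573 to 0.0907). It was 0.89 without spinal cord 3 (adjusted p = 0.000255) and 0.72 without DRG 1 and DRG 2 (adjusted p = 0.0557). Zmynd15, whose exons overlap those of Cxcl16 on the opposite strand, was measured at 1.16 ± 0.681 CPM in paw (SD, n = 3). Cxcr6, which lies within the span of Fyco1 on the opposite strand, had 40 reads in paw, 27 in DRG and 2 in spinal cord. The ratio of paw to spinal cord was 23.6 (95% counting interval 6.12 to 202) and that of DRG to spinal cord 12.6 (3.15 to 109). The difference between paw and DRG (0.90 ± 0.38, adjusted p = 0.0475) was lost when any of 6 single libraries was left out (0.70 to 1.01, adjusted p = 0.0505 to 0.164), with DESeq2 (0.92, adjusted p = 0.183) and without DRG 1 and DRG 2 (0.83, adjusted p = 0.267).

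Cxcl17, a ligand of mucosal surfaces, had 198 reads in paw, 1 in DRG and 0 in spinal cord. The paw libraries held 4.97, 3.64 and 3.30 CPM. Its level in paw was at least 77.9-fold higher than in spinal cord, with the floor of 3 reads over the tissue, and 251 times that in DRG (95% counting interval 44.6 to 9971).

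Among the CC chemokines, Ccl6 and Ccl9 lie next to each other in the mouse genome, bind Ccr1 and are known as constitutive products of macrophages and myeloid cells. Ccl6 was measured at 56.3, 56.8 and 60.0 CPM in paw, 11.3, 5.46 and 8.15 in spinal cord and 5.90, 6.76 and 6.78 in DRG. Ccl9 was measured at 23.9, 22.0 and 25.0 CPM in paw, 3.53, 2.85 and 4.11 in DRG and 3.50, 2.33 and 2.35 in spinal cord. For both, all paw libraries lay above all others and DRG overlapped spinal cord. The log2 fold change in paw against DRG was 3.15 ± 0.21 for Ccl6 (adjusted p = 6.12e-08) and 2.76 ± 0.18 for Ccl9 (adjusted p = 5.36e-08). Between DRG and spinal cord the values were -0.36 ± 0.21 (adjusted p = 0.168) and 0.35 ± 0.20 (adjusted p = 0.149). Ccl6 passed there without spinal cord 2 (-0.60, adjusted p = 0.0051) and Ccl9 without spinal cord 1 (0.58, adjusted p = 0.0303).

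Ccr1, the receptor of both, was measured at 2.87, 4.26 and 3.18 CPM in paw, 4.05, 1.91 and 2.24 in spinal cord and 1.65, 2.46 and 0.941 in DRG. Its highest spinal cord value was in spinal cord 1 and its highest DRG value in DRG 2, the libraries with the most marrow neutrophil RNA of their tissues. Paw exceeded DRG by 1.02 ± 0.37 on the log2 scale (adjusted p = 0.024), and this did not pass without DRG 1, DRG 3 or paw 2 (0.74 to 1.00, adjusted p = 0.0613 to 0.0871). DRG against spinal cord gave -0.69 ± 0.37 (adjusted p = 0.129), which passed without DRG 2 (-1.05, adjusted p = 0.042) and without DRG 1 and DRG 2 (-1.53, adjusted p = 0.041). Without spinal cord 1 that value was -0.29 (adjusted p = 0.539). Summed macrophage markers were 259 to 292 CPM in paw, 147 to 172 CPM in spinal cord and 70.7 to 102 CPM in DRG, with none of 7 at 0. All 7 were higher in paw than in DRG, beside 39.7% of all tested genes. The part of these markers in the levels of Ccl6, Ccl9 and Ccr1 was not tested.

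Another run of neighbouring genes holds Ccl2, Ccl7, Ccl11, Ccl12 and Ccl8. Ccl2, Ccl7 and Ccl12 recruit monocytes through Ccr2, Ccl11 is the eosinophil ligand eotaxin, and mouse Ccl8 acts on Ccr8. Ccl11 was the most abundant of the run, at 25.2, 22.3 and 18.5 CPM in DRG, 14.2, 22.3 and 28.3 in paw and 2.65, 2.15 and 7.23 in spinal cord. DRG and paw overlapped, and both lay above spinal cord. The log2 fold change was 2.48 ± 0.44 in DRG against spinal cord (adjusted p = 0.00111), 2.45 ± 0.44 in paw against spinal cord (adjusted p = 0.00067) and -0.03 ± 0.39 in paw against DRG (adjusted p = 0.954), the last with a sign that turned in some alternative fits.

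Ccl2 was measured at 4.07, 1.88 and 2.18 CPM in DRG, 3.83, 4.14 and 5.07 in paw and 0.250, 0.420 and 0.746 in spinal cord. Ccl7 was measured at 2.19, 1.06 and 2.03 CPM in DRG, 1.74, 2.16 and 2.36 in paw and 0.250, 0.187 and 0.459 in spinal cord. Both had the pattern of Ccl11, with DRG and paw overlapping above spinal cord. DRG exceeded spinal cord by 2.54 ± 0.41 for Ccl2 (adjusted p = 0.000253) and 2.57 ± 0.41 for Ccl7 (adjusted p = 0.000226) on the log2 scale. For Ccl2 in paw against DRG the value was 0.67 ± 0.32 (adjusted p = 0.0742), which passed without DRG 1 (1.09, adjusted p = 0.00975), the DRG library with the highest Ccl2. That comparison of Ccl2 also passed with upper quartile scaling (0.80, adjusted p = 0.0422). Ccl12 had 54 reads in DRG, 19 in paw and 32 in spinal cord and did not pass in any of the 3 comparisons. Its log2 fold change in DRG against spinal cord was 0.63 ± 0.46 (adjusted p = 0.264). In paw against DRG it was -1.15 ± 0.50 (adjusted p = 0.0539), and it passed without DRG 3 (-1.41, adjusted p = 0.0276) and without paw 3 (-1.78, adjusted p = 0.0171). Ccl8 had 220 reads in paw, 26 in DRG and 3 in spinal cord. The ratio of paw to spinal cord was 86.5 (95% counting interval 29.2 to 423), and paw exceeded DRG by a log2 fold change of 3.40 ± 0.32 (adjusted p = 1.03e-06).

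Spinal cord 3 had the highest values of Ccl2, Ccl7, Ccl8 and Ccl11 in its tissue, and also the highest sum of fibroblast markers. Fibroblast markers summed to 2228 to 3310 CPM in DRG, 385 to 1158 CPM in spinal cord and 4614 to 5918 CPM in paw, with none of 6 at 0. In DRG 5 of the 6 were higher than in spinal cord and 1, Pdgfra, was lower, beside 29.0% and 30.6% of all tested genes. Spinal cord 3 also had the highest sum of Schwann cell markers in its tissue. The part of fibroblast or Schwann cell markers in the levels of these ligands was not tested.

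Ccr2, the monocyte receptor for Ccl2, was measured at 14.8, 18.7 and 22.8 CPM in paw, 10.0, 7.63 and 7.38 in DRG and 5.25, 1.35 and 4.31 in spinal cord. The tissues did not overlap. Paw exceeded spinal cord by 2.38 ± 0.39 (adjusted p = 0.00025) and DRG by 1.17 ± 0.36 (adjusted p = 0.0125) on the log2 scale, and the latter did not pass without paw 3 (1.01, adjusted p = 0.0516) or without DRG 1 and DRG 2 (1.34, adjusted p = 0.0813). DRG exceeded spinal cord by 1.21 ± 0.39 (adjusted p = 0.0221), which did not pass without DRG 1 (1.06, adjusted p = 0.0737) or without DRG 1 and DRG 2 (1.04, adjusted p = 0.189). The ligands Ccl3, Ccl4 and Ccl5, which recruit macrophages and T cells, were near the floor and not tested. Over the 9 libraries Ccl3 had 33 reads, Ccl4 15 and Ccl5 41. In spinal cord, paw and DRG, Ccl3 had 19, 11 and 3 reads, Ccl4 10, 0 and 5, and Ccl5 14, 8 and 19. The ratio of spinal cord to DRG for Ccl3 was 6.81 (95% counting interval 2.01 to 35.9).

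Ccl24, the second eotaxin, was measured at 2.81, 3.76 and 4.12 CPM in paw, 0.536, 0.241 and 0.594 in DRG and 0.150, 0 and 0.115 in spinal cord, in that order without overlap. Paw exceeded DRG by 2.94 ± 0.40 on the log2 scale (adjusted p = 2.84e-05). Ccr3, the eotaxin receptor of eosinophils, had 26 reads in all, 16 of them in spinal cord 1, and was not tested. The ligands of Ccr4, a receptor of T cells that home to skin, are Ccl17 and Ccl22. Ccl17 was measured at 1.62, 1.05 and 1.00 CPM in paw, 0.0894, 0.241 and 0.297 in DRG and 0.300, 0.513 and 0.230 in spinal cord. Ccl22 was measured at 3.35, 2.35 and 3.47 CPM in paw, 1.16, 0.676 and 0.594 in DRG and 1.00, 0.606 and 0.631 in spinal cord. All paw libraries lay above the others for both ligands, by 2.53 ± 0.46 and 1.90 ± 0.32 against DRG on the log2 scale (adjusted p = 0.000301 and 0.000178). Ccr4 itself had 50 reads in paw, 2 in DRG and 0 in spinal cord, which makes paw at least 19.7-fold higher than spinal cord and 31.7 times DRG (95% counting interval 8.33 to 269). Langerhans cell and dendritic cell markers, known sources of Ccl17 and Ccl22, summed to 78.2 to 82.3 CPM in paw, 28.2 to 33.5 CPM in DRG and 36.8 to 43.1 CPM in spinal cord. Of the 5, Cd207 was at 0 in spinal cord and at 0.04 to 0.05 CPM in DRG against 10.5 to 14.8 CPM in paw, while Flt3 was higher in DRG and spinal cord than in paw. Their part in these levels was not tested.

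Ccl25 is the ligand that draws cells carrying Ccr9 to thymus and gut. Ccl25 was measured at 5.95, 7.23 and 3.96 CPM in spinal cord, 2.50, 2.70 and 2.28 in DRG and 1.92, 2.53 and 2.47 in paw. All spinal cord libraries lay above the rest, with a log2 fold change of -1.20 ± 0.23 in DRG against spinal cord (adjusted p = 0.000996). Ccr9 was measured at 9.94, 6.30 and 6.77 CPM in paw, 0.300, 0.187 and 0.344 in spinal cord and 0.0447, 0.241 and 0.149 in DRG. Ligand and receptor had different tissues on top, and Ccr9 exceeded spinal cord by 4.78 ± 0.36 in paw (adjusted p = 1.57e-07). Both genes share exon sequence with a gene on the opposite strand, Elavl1 for Ccl25 and Slc6a20a for Ccr9. The strand setting of the counting is not given in the sources used here, so the reads of such pairs may not be separated. Elavl1 was measured at 62.1 ± 2.09, 102 ± 2.37 and 61.0 ± 5.73 CPM in DRG, spinal cord and paw, and Slc6a20a at 5.15 ± 2.71, 5.11 ± 1.93 and 14.5 ± 2.24 CPM (SD, n = 3). Each had the same highest tissue as its partner, and their part in these levels was not tested.

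Ccl27a is known as a keratinocyte ligand that calls T cells with Ccr10 to skin. In these libraries Ccl27a was measured at 10.5, 9.89 and 11.0 CPM in spinal cord, 5.63, 5.89 and 6.04 in DRG and 1.20, 1.30 and 1.65 in paw. Paw was the lowest tissue without overlap, with a log2 fold change against DRG of -2.08 ± 0.17 (adjusted p = 4.03e-07), while keratinocyte markers were highest there. Ccl27b, a near-identical copy, had 0 reads in every library. Alignments to several places were not counted to genes, so the level of Ccl27a is uncertain. Il11ra1, which shares exon sequence with Ccl27a on the opposite strand, was highest in paw, at 17.6 ± 0.693, 24.4 ± 2.36 and 40.0 ± 2.14 CPM in DRG, spinal cord and paw (SD, n = 3). Ccr10 had 63 reads in DRG, 1 in paw and 24 in spinal cord, so that DRG stood at 49.7 times paw (95% counting interval 8.59 to 1992). DRG exceeded spinal cord by 1.28 ± 0.39 (adjusted p = 0.0149), which did not pass without DRG 2 (1.06, adjusted p = 0.0618) or with DESeq2 (1.29, adjusted p = 0.0641). The call was also lost without DRG 1 and DRG 2 (1.27) and without spinal cord 1 and spinal cord 3 (1.42). Ccr10 lies within the span of Cntnap1, a gene of myelinated axons on the opposite strand with 315 ± 50.4, 538 ± 61.8 and 6.10 ± 1.20 CPM in DRG, spinal cord and paw.

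The neutrophil axis is formed by Cxcl1, Cxcl2, Cxcl3 and Cxcl5 with their receptor Cxcr2. Cxcl1 had 51 reads in paw, 7 in spinal cord and 5 in DRG, and paw exceeded DRG by 3.59 ± 0.66 on the log2 scale (adjusted p = 0.000352). Cxcl2 had 27, 1 and 0 reads, and Cxcl3 34, 0 and 2 reads, in paw, spinal cord and DRG. Neither of the latter was tested. Cxcl2 was at least 11.4-fold higher in paw than in DRG, and Cxcl3 at least 13.4-fold higher in paw than in spinal cord. The 3 genes lie in 1 run on chromosome 5 and all carry the kB letters shown above or, for Cxcl2, in its own window. Cxcl5 had 35 reads in paw, 24 in spinal cord and 9 in DRG, and paw exceeded DRG by 2.26 ± 0.63 (adjusted p = 0.00575). Without DRG 1 it also passed in DRG against spinal cord (-2.36, adjusted p = 0.0343).

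Cxcr2 itself was measured at 10.5, 1.59 and 5.28 CPM in spinal cord, 6.94, 6.05 and 6.13 in paw and 2.19, 5.12 and 2.97 in DRG. Spinal cord 1 was the highest library of all, spinal cord 2 the lowest, and DRG 2 the highest of its tissue. The marrow neutrophil sum had the same library as Cxcr2 on top in spinal cord and in DRG, but not in paw. In paw that sum was only 6.11 to 11.3 CPM, with Cxcr2 at 6.05 to 6.94 CPM. Cxcr2 did not pass in any comparison, at -0.75 ± 0.57 in DRG against spinal cord (adjusted p = 0.291), 0.90 ± 0.58 in paw against DRG (adjusted p = 0.179) and 0.15 ± 0.56 in paw against spinal cord (adjusted p = 0.818). Without spinal cord 1 the first of these was 0.03 (adjusted p = 0.973), and without spinal cord 1 and spinal cord 3 the last was 2.02 (adjusted p = 0.00254). Without spinal cord 2 it passed in DRG against spinal cord (-1.22, adjusted p = 0.0149) and in paw against DRG (0.93, adjusted p = 0.0234). All paw libraries lay above all DRG libraries. Paw against DRG also passed with the 2 compared tissues alone (0.91, adjusted p = 0.0114). The part of marrow neutrophil RNA in the level of Cxcr2 was not tested. Cxcr1, its paralog, had 3 reads in all.

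Cxcl9, Cxcl10 and Cxcl11 are ligands that interferon raises and Cxcr3 reads on T cells. Cxcl10 was measured at 2.82, 2.27 and 2.57 CPM in DRG, 0.419, 0.802 and 0.589 in paw and 0.300, 0.233 and 0.918 in spinal cord. Cxcl11 was measured at 3.84, 2.27 and 3.17 CPM in DRG, 0.650, 0.933 and 2.24 in spinal cord and 0.0599, 0.370 and 0.236 in paw. DRG was above both other tissues for both ligands without overlap. Cxcl10 in DRG exceeded spinal cord by 2.44 ± 0.42 (adjusted p = 0.000379) on the log2 scale, and paw against DRG gave -2.07 ± 0.41 (adjusted p = 0.000601). Cxcl11 exceeded spinal cord by 1.30 ± 0.43 (adjusted p = 0.0216), which did not pass when either DRG 1 or 3, or either spinal cord 1 or 2, was left out (1.00 to 1.29, adjusted p = 0.0531 to 0.0878). It did not pass without DRG 1 and DRG 2 either (1.34, adjusted p = 0.113), and was 1.97 without spinal cord 3 (adjusted p = 0.00173). Cxcl11 in paw against DRG was -3.77 ± 0.57 (adjusted p = 7.8e-05). Cxcl9 had 42 reads in DRG, 15 in paw and 1 in spinal cord and was not tested. The ratio of DRG to spinal cord was 39.0 (95% counting interval 6.64 to 1579). In spinal cord, spinal cord 3 had the highest Cxcl10 and Cxcl11, and without it Cxcl10 passed in paw against spinal cord (1.20, adjusted p = 0.0301). Cxcr3 had 18 reads in paw and 15 in each of the other tissues. T cell markers were near the floor in all tissues, with summed levels of 1.59 to 3.66 CPM and only 2 of 6 tested. Cxcl10 and Cxcl11 lie within the span of Art3 on the opposite strand, which was measured at 167 ± 15.1, 51.8 ± 25.9 and 119.6 ± 32.8 CPM in DRG, spinal cord and paw (SD, n = 3).

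Darc is an atypical receptor of erythrocytes and venular endothelium that binds many inflammatory chemokines. It was measured at 149, 193 and 153 CPM in DRG, 66.8, 83.6 and 62.3 in spinal cord and 14.1, 18.2 and 21.4 in paw. The tissues did not overlap, with log2 fold changes of -3.20 ± 0.18 in paw against DRG (adjusted p = 1.31e-08) and 1.22 ± 0.16 in DRG against spinal cord (adjusted p = 6.35e-05). Its exons overlap those of Cadm3, a neuronal adhesion gene on the same strand, and counting by strand cannot separate them. The means of Cadm3 were 1016 ± 78.3 CPM in the ganglia, 499 ± 46.1 CPM in the cord and 40.9 ± 6.68 CPM in skin (SD, n = 3), which is the order of Darc. Endothelial markers had the reverse order, with sums of 158 to 203 CPM in DRG, 222 to 290 CPM in spinal cord and 368 to 442 CPM in paw. The part of Cadm3 reads in the counts of Darc was not tested, so its level is uncertain.

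**Figure D4:**
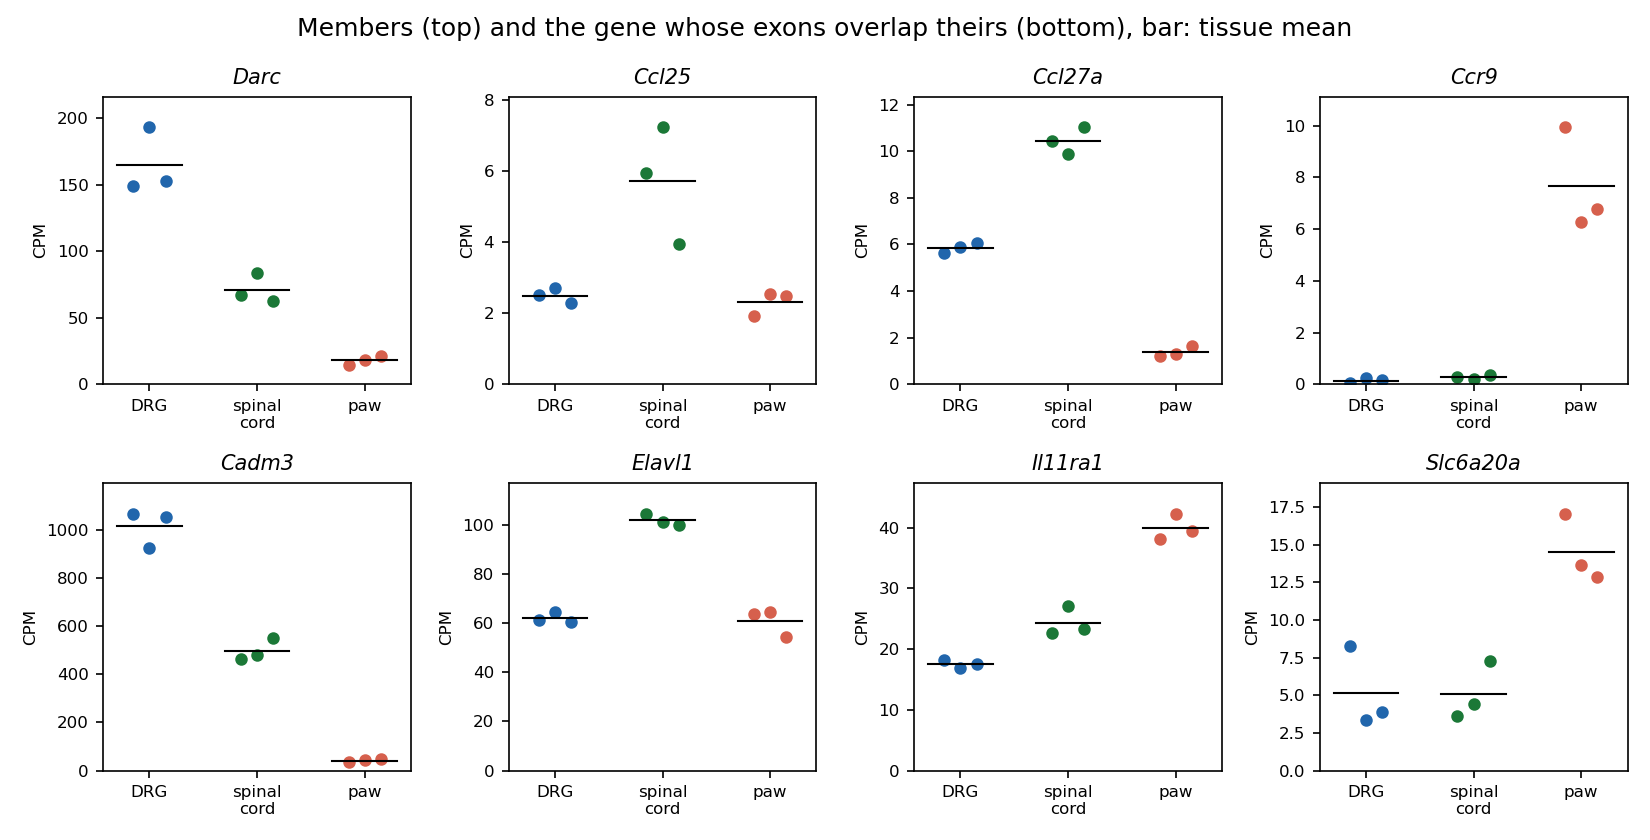
CPM by library of 4 members (top) and of the gene whose exons overlap those of the member above it (bottom), with 3 points per tissue and the tissue mean as a bar. Darc and Cadm3 fall in the same order from DRG to paw, whereas Ccl27a is lowest and Il11ra1 highest in paw.

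The ligands that place lymphocytes in lymphoid tissue were close to or at the floor. Ccl19, Ccl21a, Ccl21b and Ccl21c had 0 reads in all 9 libraries, and their receptor Ccr7 had 38 reads in all. The Ccl21 copies are near-identical, and alignments to several places were not counted to genes, so a count of 0 does not show that they are silent. Whether reads of Ccl19 were lost in the same way was not tested. Cxcl13 had 42 reads in paw, 3 in DRG and 0 in spinal cord, which makes paw at least 16.5-fold higher than spinal cord, and its B cell receptor Cxcr5 had 25 reads in all. Cxcr5 shares exon sequence with Bcl9l on the opposite strand. Ccl20 had 10 reads, all in paw, and its receptor Ccr6 had 7. Ccl27b and Ccl28 were also at 0 in every library. Ccl1 had 20 reads, 18 of them in DRG. Fewer than 10 reads each were found for Ccl26, Ccr1l1, Ccr8, Cxcl15 and Xcl1, and Xcr1, the dendritic cell receptor of Xcl1, had 21. Of the 27 members that were not tested, 6 had 0 reads, 8 had 1 to 10 reads and 13 had more, up to 58 for Cxcl9.

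In DRG against spinal cord, DRG had more RNA of 8 ligands and of Ccr2, Cxcr4, Cxcr6, Ccr10 and Darc, and less of Cx3cl1, Cx3cr1, Cxcl14, Ccl25, Ccl27a and Cxcl12, among others. In all, 20 of the 33 tested members passed an adjusted p of 0.05, 13 higher and 7 lower in DRG, where 59.6% of all tested genes passed, 29.0% higher and 30.6% lower. The ligands higher in DRG were Ccl2, Ccl7, Ccl8, Ccl11, Ccl24, Cxcl10, Cxcl11 and Cxcl16. The members' median log2 fold change was 0.35, against -0.02 for all tested genes, and 0.13 over 31 members with genes at 0 reads set at their bound and 2 with at most 3 reads in both tissues left out. The same step left the medians of the paw comparisons at their values. When these 2 tissues were fitted alone, 8 members passed as higher. Ccl24, Ccl8 and Cxcr6 were not tested in that fit, and Ccr2 (1.20, adjusted p = 0.0514) and Cxcl16 (0.59, adjusted p = 0.0525) missed the threshold.

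In paw against DRG, most members that passed were higher in the skin, among them Ccl6, Ccl9, Cxcl12, Cxcl14, Cxcl16 and Cxcr7. Here 27 of the 33 passed, 19 higher and 8 lower in paw, where 80.5% of all tested genes passed, 39.7% higher and 40.8% lower. The 8 members lower in paw included Ccl27a, Ccr10, Cx3cr1, Cxcl10, Cxcl11, Cxcr4 and Darc. The members' median log2 fold change was 1.17, against -0.02 for all tested genes. Those without a call were Ccl2, Ccl7, Ccl11, Ccl12, Ccl25 and Cxcr2.

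In paw against spinal cord, Ccl6, Ccl9, Cxcl12, Cxcl16 and Cxcr7 were again higher in the skin, and Cx3cl1 and Cx3cr1 were lower. Again 27 of the 33 passed, 18 higher and 9 lower in paw, where 81.6% of all tested genes passed, 39.9% higher and 41.7% lower. The 9 lower members included Ccl25, Ccl27a, Ccr10, Cx3cl1, Cx3cr1, Cxcl11, Cxcr4 and Darc. The members' median was 1.77, against -0.03 for all tested genes. The 3 comparisons share libraries, so their calls are not independent of each other.

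**Figure D5:**
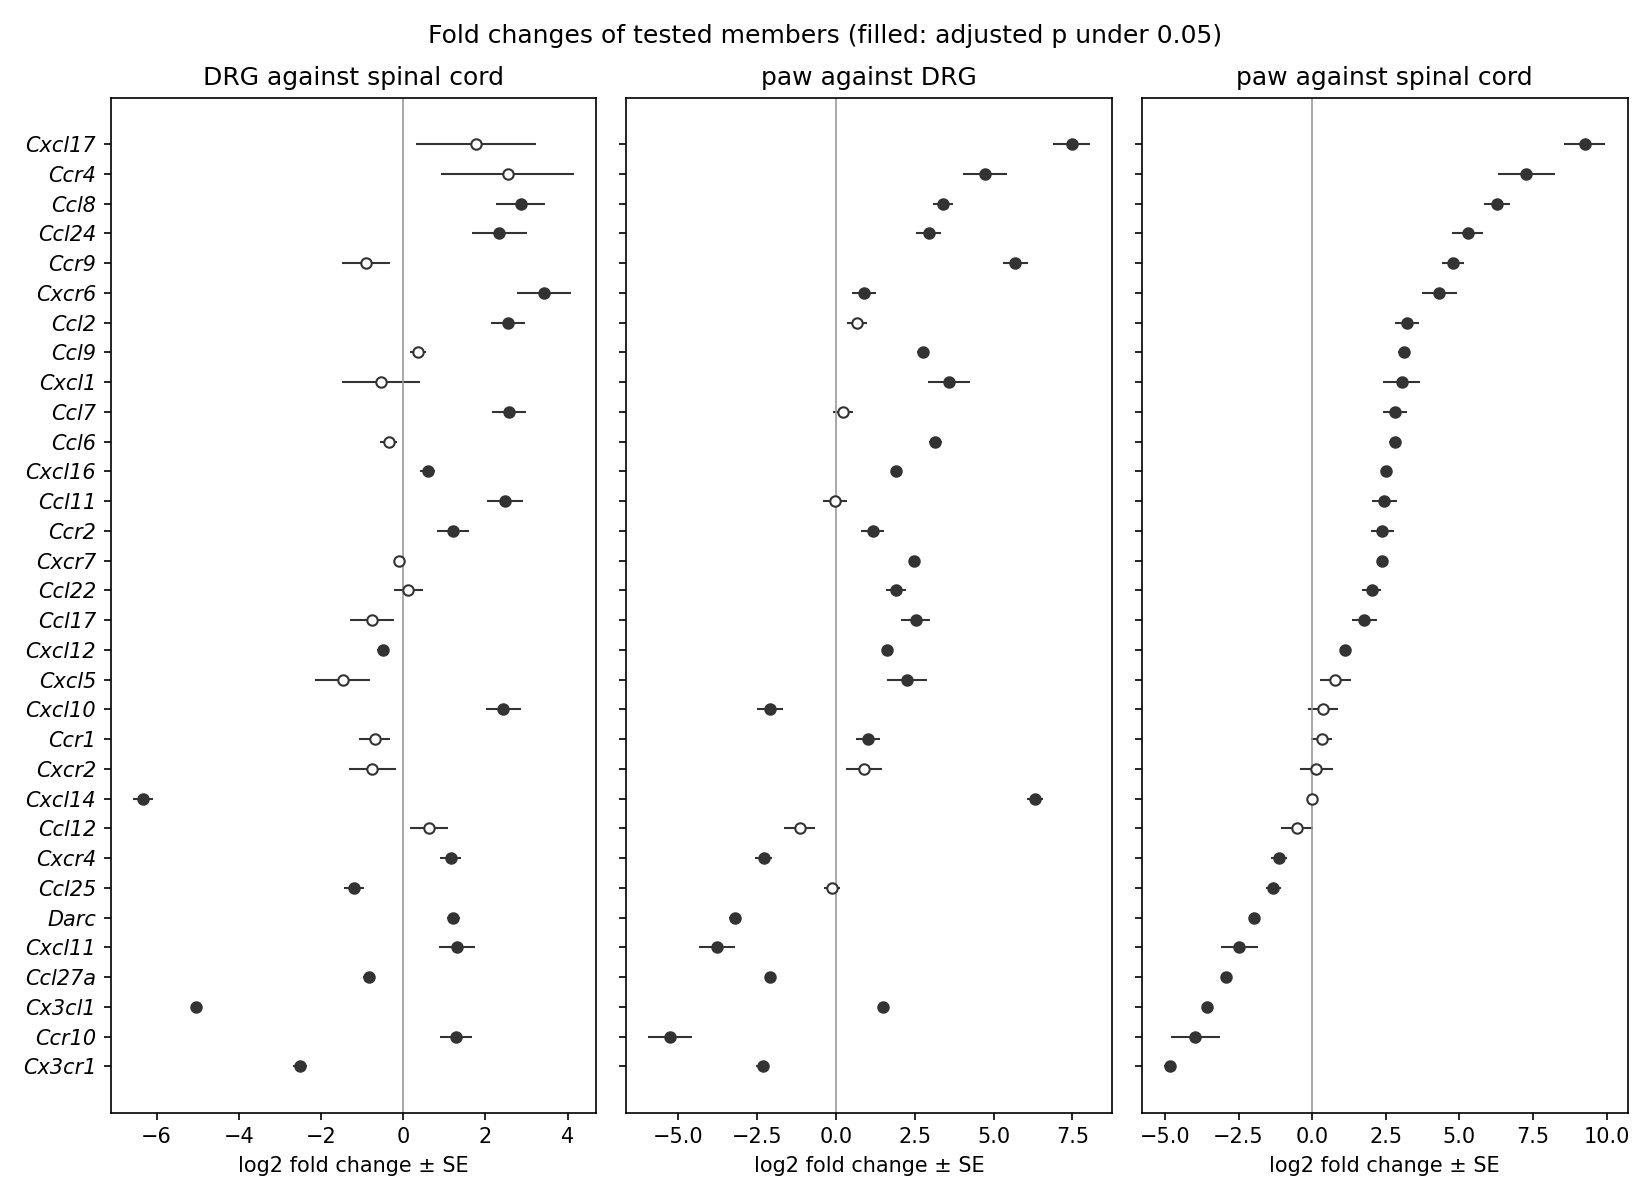
Log2 fold changes of 32 of the 33 tested members with their SE, 1 panel per tissue comparison, with filled points where the adjusted p is under 0.05. Cxcl14 has the lowest value of DRG against spinal cord, and the fitted values of genes with 0 to 3 reads in a tissue (Cxcl17, Ccr4, Ccl8, Ccr10 and Cxcr6) depend on the prior count and are no bound.

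Signalling proteins that chemokine receptors use were counted from a separate list of 34 genes, all tested. In DRG against spinal cord 13 were higher and 4 lower, which is 38.2% and 11.8% of the list beside 29.0% and 30.6% of all tested genes. The largest increases were those of Plcb3, a phospholipase C driven by G proteins (4.05 ± 0.13), and Prkcd, a protein kinase C (3.13 ± 0.12), and the 4 lower genes were Adrbk2, a receptor kinase (-1.89 ± 0.11), Vav1, Tiam1 and Ptk2. The count of 4 was 7 or 8 when DRG 2, spinal cord 2 or spinal cord 3 was left out. In paw 6 were higher and 16 lower than in DRG (17.6% and 47.1%, beside 39.7% and 40.8% of all tested genes), with Tiam1, an activator of Rac, at 2.91 ± 0.20 and Gng2, a G protein gamma subunit, at -4.46 ± 0.14. In paw 10 were higher and 15 lower than in spinal cord (29.4% and 44.1%, beside 39.9% and 41.7%), with Ptk2b, a focal adhesion kinase relative, at 2.60 ± 0.17 and Elmo1, an adaptor for Rac activation, at -3.08 ± 0.12 (log2 fold change ± SE). The list's medians were 0.04, -0.33 and -0.25 in the 3 comparisons, beside -0.02, -0.02 and -0.03 for all tested genes. These genes serve many receptors in neurons and other cells.

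Enzymes that shed or trim chemokines formed a list of 8, with 7 tested. Adam10 and Adam17, which release Cx3cl1 and Cxcl16 from the membrane, exceeded their spinal cord levels in DRG by 1.39 ± 0.20 and 0.65 ± 0.16 on the log2 scale. Mmp2, which cleaves Ccl7 and Cxcl12, was higher in DRG by 2.55 ± 0.28, and Mmp9 was lower (-1.29 ± 0.36). Dpp4, which clips the start of Cxcl12 and Cxcl10, exceeded DRG in paw by 2.67 ± 0.27. The neutrophil enzymes Mmp8 and Mmp9 were lower in paw than in DRG (-5.50 ± 0.93 and -3.60 ± 0.47). So were 7 of the 8 matched marrow neutrophil markers, a list that itself holds Mmp8, beside 40.8% of all tested genes. The part of these markers in the result was not tested. In DRG against spinal cord 3 enzymes were higher and 1 lower (42.9% and 14.3% of the 7, beside 29.0% and 30.6% of all tested genes). In each paw comparison 3 were higher and 3 lower (42.9% each), beside 39.7% and 40.8% of all tested genes against DRG and 39.9% and 41.7% against spinal cord. The medians of the enzymes were 0.17 in DRG against spinal cord, -1.33 in paw against DRG and 0.06 in paw against spinal cord, beside -0.02, -0.02 and -0.03 for all tested genes.

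Of 7 related genes outside the naming rule, 6 were higher in paw than in DRG (85.7%, beside 39.7% of all tested genes) and 3 were lower in DRG than in spinal cord (42.9%, beside 30.6%). The atypical receptors Ccrl1, which takes up Ccl19, Ccl21 and Ccl25, and Ccbp2, which degrades inflammatory CC chemokines, exceeded DRG in paw by 6.23 ± 0.35 and 5.24 ± 0.36 on the log2 scale. Pf4, the platelet and megakaryocyte chemokine Cxcl4, was higher by 2.98 ± 0.30. In paw against spinal cord 5 of the 7 were higher (71.4%, beside 39.9% of all tested genes) and none passed as lower. The medians of the 7 were -0.92 in DRG against spinal cord, 2.42 in paw against DRG and 1.21 in paw against spinal cord, beside -0.02, -0.02 and -0.03 for all tested genes.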

How the data were processed

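RNA was measured in 9 libraries. Per the labels' protocols, oligo-dT selection of roughly 500 ng total RNA was followed by a stranded (dUTP) preparation and single-end sequencing of 50 bases. The submitters' processing notes name bcl2fastq, TopHat2, HTSeq and the mm9 build. Versions, annotation and strand setting were not given in the sources used here. The authors deposited whole-number read counts per gene symbol, with 5 summary rows per file. These rows hold 42.9 to 59.3% of the reads and stayed out of library sizes and tests.

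Groups were taken from the sample titles. edgeR 4.0.16 (R 4.3.3) fitted the counts of all 9 libraries by tissue, leaving 6 residual degrees of freedom, with filterByExpr by tissue, TMM, robust glmQLFit and glmQLFTest. P-values were adjusted by Benjamini-Hochberg over 16091 tested genes, and a call is an adjusted p under 0.05. SE is the size of the log2 fold change divided by the square root of F. A fold against 0 reads in a tissue is a bound against 3 reads over the tissue, and one against 1 to 3 reads has an exact 95% interval. Both cover counting error only. No library repeated another, since chi-square per degree of freedom within a tissue was 7.55 to 38.4. The scripts were tested on simulated data.

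The 16 members with a mean of at least 5 CPM in a tissue are given by library, and others by reads or where a comparison turns on them. Results for 1 tested member are not reported here, though it stays in the counts and medians. Members and lists were chosen with earlier results of these data known. DESeq2 1.42.0, upper quartile scaling, no filter, a replicate block, pairs of tissues alone, a 2-fold threshold and fits without 1 or 2 libraries were alternatives. Exon lengths and overlaps come from GENCODE M21 and promoters from RefSeq, both on GRCm38. These differ from the files' build, and no coordinates were converted.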

Additional observations from a re-analysis of the deposited data

How the results depend on the processing

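Over the 3 comparisons, 64 of the 74 member calls were kept in every alternative that gave a value, 10 were lost in at least 1, and 8 of these in a fit without 1 library. The main fit did not treat same-numbered samples as pairs. Of 9 same-numbered pairs, 2 correlated over 0.1 (-0.18 to 0.34). These were DRG 2 with spinal cord 2 (0.34) and DRG 3 with spinal cord 3 (0.26), while DRG 1 with spinal cord 3 reached 0.43. Such correlations cannot tell whether a shared number marks the same animal. With the number as a replicate block, 26 members in place of 27 passed in paw against DRG, without Cxcr6 (0.90, adjusted p = 0.0601), and no other member's call changed. With the 2 compared tissues alone, 8 members in place of 13 passed as higher in DRG than in spinal cord: 3 were not tested in that fit, and Ccr2 (1.20, adjusted p = 0.0514) and Cxcl16 (0.59, adjusted p = 0.0525) kept their direction. In paw against DRG 28 members in place of 27 then passed, with Cxcr2 gained (0.91, adjusted p = 0.0114). In paw against spinal cord 26 in place of 27 passed, without Ccr10. Upper quartile scaling moved the median of all genes in paw against DRG by 0.12. The signalling genes lower in DRG than in spinal cord, 4 in the report, were 8 with upper quartile scaling and 2 without spinal cord 1 and spinal cord 3. With a 2-fold threshold the signalling list had 6 higher and 2 lower in DRG against spinal cord, 3 higher in paw against DRG, and 5 higher and 9 lower in paw against spinal cord. For all genes that threshold left 2261 higher and 2316 lower in DRG against spinal cord, 4110 higher in paw against DRG and 4215 higher in paw against spinal cord.

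Without 1 library at a time, members higher and lower numbered 11 to 14 and 7 to 9 in DRG against spinal cord, 19 to 23 and 7 to 9 in paw against DRG, and 20 to 23 and 9 in paw against spinal cord. Signalling genes numbered 12 to 14 and 4 to 8, 4 to 7 and 16 to 17, and 10 to 12 and 12 to 15 in the same order. All genes numbered 4162 to 4725 and 4366 to 5078, 6169 to 6692 and 6268 to 6581, and 6251 to 6638 and 6394 to 6698. More members can pass in such a fit because the filter then keeps some that were not tested (Cxcl2, Cxcl3, Cxcl9 or Cxcl13).

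Signs turned only for comparisons with no call in the report. In DRG against spinal cord these were Ccl12 without DRG 1 and DRG 2 (-0.14), Ccl22 without DRG 1 (-0.23), without spinal cord 2 (-0.02; 0.40 at most without 1 library) and without DRG 1 and DRG 2 (-0.32), Ccl6 without spinal cord 1 and spinal cord 3 (0.26), Cxcl1 without spinal cord 2 (1.35, against -1.02 without spinal cord 3), and Cxcr2 without spinal cord 1 (0.027, against -1.22 without spinal cord 2) or without spinal cord 1 and spinal cord 3 (1.11). In paw against DRG, Ccl11 turned with upper quartile scaling (0.10), without DRG 1 (0.08), spinal cord 2 (0.0026), spinal cord 3 (0.00028) or paw 1 (0.19, against -0.27 without paw 3), and without DRG 1 and DRG 2 (0.21), and Ccl25 with upper quartile scaling (0.010) and without DRG 1 and DRG 2 (0.0090). In paw against spinal cord, Cxcl14 turned with upper quartile scaling (0.060), the block (0.0041) and without DRG 2 (0.01), spinal cord 2 (0.13) or paw 2 (0.07, against -0.088 without spinal cord 3), and Cxcr2 without spinal cord 2 (-0.29, against 0.94 without spinal cord 1). The cause was not tested. Low read counts limit most the 27 members that were left out of the tests. The part of sequencing depth in those counts was not tested.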
